A study of Mus musculus with 4 samples.

Results

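The features described here are the CpG islands, island flanks, promoters and bodies of 43 imprinted genes of the mouse. They were taken by gene name, as every row of the CpG island table and of the gene table that carries one of the 43 names. No methylation value entered that choice. This gave 317 of 135245 features: 235 of 80045 in the CpG island table and 82 of 55200 in the gene table. 41 of the 43 names occurred in either table, 41 in the gene table and 30 in the CpG island table. Peg13 and Rian were listed under neither name, and the island of Peg13 was listed under Trappc9, the gene that surrounds it. The working name of the set speaks of differentially methylated islands, and the values below go against that description. The islands are therefore called islands of imprinted genes.

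The assay was reduced representation bisulfite sequencing (RRBS). The enzyme MspI cuts at CCGG and bisulfite converts unmethylated cytosines, so reads come mostly from CpG-rich DNA. All 4 libraries came from CGR8, a mouse embryonic stem cell line grown with serum and LIF, and all carried a stably transfected ppy-cagg-ires-puro vector. In the 2 control libraries the vector was empty, and in the 2 netrin-1 libraries it encoded netrin-1, a secreted guidance protein. The comparison asks how methylation differs when cells express netrin-1 from the transgene. Nothing in the labels tells what separates replicates of a group (clone, culture or DNA preparation), and p-values may therefore measure technical spread. RNA was not measured in these libraries. Total calls per library ran from 20593294 to 36121770 in the CpG island table and from 31452170 to 53293458 in the gene table. The promoters of 7 of 9 embryonic stem cell markers had calls. That of Pou5f1, a core pluripotency factor, was methylated in at most 1.39% of calls in any library. The promoter of Esrrb, another such factor, stood at 51.7% and 9.43% in the controls and at 49.4% and 14.8% in the netrin-1 libraries. Mean levels over the 4 libraries ran from 0.550% to 31.3% at these 7 promoters. With at least 10 calls in every library, 4 promoters of fibroblast markers ran from 3.16% to 22.4%. Those of 4 germ cell markers ran from 4.05% to 7.92%. These ranges overlap, so the promoter levels cannot tell the cell type.

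Imprinted genes are expressed from the copy inherited from one parent. The choice is set by germline differentially methylated regions, which acquire methylation in the egg or in the sperm and keep it after fertilisation on that copy alone, so that a bulk sample with an intact mark gives an intermediate level. The zinc finger protein ZFP57, with TRIM28, protects these marks in embryonic stem cells by binding a methylated TGCCGC motif.

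The promoter windows of 6 of the genes are shown to make plain what kind of DNA the values refer to. 5 of them lie at germline regions methylated on the maternal copy, and the last belongs to the single imprinted promoter with an intermediate level. Each window runs from 250 bases before to 50 bases after the RefSeq start (GRCm38.p6, the same primary assembly as mm10), is written 5′ to 3′ on the strand of the gene, and has its CpG dinucleotides in capitals.
Mcts2, chr2:152686898-152687197, plus strand: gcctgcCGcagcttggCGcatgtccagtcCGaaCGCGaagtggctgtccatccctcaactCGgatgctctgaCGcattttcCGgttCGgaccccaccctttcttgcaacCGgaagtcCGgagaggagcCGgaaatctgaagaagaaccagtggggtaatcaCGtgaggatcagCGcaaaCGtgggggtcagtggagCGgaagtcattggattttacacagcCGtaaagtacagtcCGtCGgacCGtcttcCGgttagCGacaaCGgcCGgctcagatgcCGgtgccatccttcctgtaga
Mest, chr6:30737800-30738099, plus strand: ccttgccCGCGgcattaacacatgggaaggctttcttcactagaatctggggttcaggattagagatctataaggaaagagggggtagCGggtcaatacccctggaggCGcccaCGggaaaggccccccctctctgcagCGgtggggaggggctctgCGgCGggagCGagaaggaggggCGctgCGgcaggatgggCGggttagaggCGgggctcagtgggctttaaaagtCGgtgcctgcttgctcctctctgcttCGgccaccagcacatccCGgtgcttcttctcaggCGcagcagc
Nap1l5, chr6:58907077-58907376, minus strand: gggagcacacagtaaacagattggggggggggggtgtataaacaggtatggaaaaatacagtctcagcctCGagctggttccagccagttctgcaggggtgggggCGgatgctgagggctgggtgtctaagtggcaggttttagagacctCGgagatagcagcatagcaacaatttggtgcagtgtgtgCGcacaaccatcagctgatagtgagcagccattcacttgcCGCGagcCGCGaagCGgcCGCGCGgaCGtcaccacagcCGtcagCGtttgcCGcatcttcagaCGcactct
Snrpn, chr7:60005150-60005449, minus strand: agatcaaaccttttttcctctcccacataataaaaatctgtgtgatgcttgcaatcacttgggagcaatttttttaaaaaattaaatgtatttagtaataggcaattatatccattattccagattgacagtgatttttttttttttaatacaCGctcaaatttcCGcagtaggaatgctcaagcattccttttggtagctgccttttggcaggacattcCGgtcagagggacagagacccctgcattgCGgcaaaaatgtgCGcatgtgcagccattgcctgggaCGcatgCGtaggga
Plagl1, chr10:13090582-13090881, plus strand: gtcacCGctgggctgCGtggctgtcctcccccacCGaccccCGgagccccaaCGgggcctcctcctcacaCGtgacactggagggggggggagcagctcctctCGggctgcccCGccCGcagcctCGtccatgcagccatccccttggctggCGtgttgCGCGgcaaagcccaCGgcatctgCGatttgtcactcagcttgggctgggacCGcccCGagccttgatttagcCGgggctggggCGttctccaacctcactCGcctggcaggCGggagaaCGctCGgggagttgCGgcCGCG
Slc22a18, chr7:143473539-143473838, plus strand: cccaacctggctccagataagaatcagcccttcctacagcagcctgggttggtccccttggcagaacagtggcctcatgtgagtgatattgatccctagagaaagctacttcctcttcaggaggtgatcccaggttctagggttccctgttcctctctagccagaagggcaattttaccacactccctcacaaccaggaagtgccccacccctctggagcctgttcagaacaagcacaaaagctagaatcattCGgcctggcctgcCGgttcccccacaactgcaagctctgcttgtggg

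The Mcts2 and Plagl1 windows lie wholly inside the measured island, the Mest window shares 192 bases with it and the Nap1l5 window 71 bases. The Snrpn and Slc22a18 windows lie inside the measured promoters. The windows hold 25, 17, 17, 7, 26 and 2 CpG in the order shown. TGCCGC, searched on both strands, occurs in the first 5 windows and not in that of Slc22a18. Over all names, RefSeq windows outside chromosome 18 were matched for 35 of the genes, and 14 of their 53 windows (26.4%) held TGCCGC, against 11.6% of all 32841 windows. The median number of CpG per window was 13 against 7 over all windows. A match is a description of the letters in these windows.

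The islands at textbook germline regions were almost free of methylation in all 4 libraries. 15 islands and 2 promoters were placed at such regions, all of them methylated on the maternal copy in normal tissue, and this placement was made after their values had been seen. The mean level over the 4 libraries was below 2% in 15 of the 17 features. Summed over the 17, 1.25% of 7366 calls were methylated in control 1 and 1.59% of 11348 in control 2. The netrin-1 libraries had 1.11% of 8350 calls and 1.11% of 13736 calls. The control and netrin-1 means of these sums were 1.42% ± 0.245 and 1.11% ± 0.00508 (SD, n = 2 libraries each). The unweighted mean over the 17 features went the other way, with 1.77% ± 0.00518 in the controls and 2.76% ± 0.716 in netrin-1. Within the set, 8 features were lower and 9 higher in netrin-1. Groups did not overlap at 2 of the lower and 4 of the higher, where over all islands 20.1% were so lower and 13.7% so higher. The greatest rises, 12.9 and 9.22 percentage points, were at the thinly covered Mest and Peg3 islands and weigh heavily in the unweighted mean.

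The Mcts2 island, at chr2:152686810 in an intron of H13, belongs to a retrogene expressed from the paternal copy. Its levels were 0.782% and 0.904% in the controls and 1.04% and 0.200% in the netrin-1 libraries, from 957 to 2003 calls. The Peg10 island, at the start of a retrotransposon-derived gene needed for the placenta, stood at 0.811% and 1.44% in the controls and at 1.90% and 0% in netrin-1. No library of either island reached 2%, and the groups overlapped.

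Plagl1 encodes a zinc finger transcription factor that restrains growth. Its intragenic island, which starts at chr10:13090533, had 0.963% and 0.493% in the controls and 1.10% and 0.387% in netrin-1. The Airn island, at the start of the noncoding RNA that silences Igf2r, had 1.27% and 0.194% in the controls and 0.485% and 0.996% in netrin-1. Kcnq1ot1 is the noncoding RNA that silences Cdkn1c and its neighbours. Its promoter and the island at its listed start had no calls in any library. Its intragenic island, at chr7:143295405-143295824, had 0% and 0.519% in the controls and 0% and 1.89% in netrin-1. These 3 measured islands sat close to 0 in both groups.

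The Snrpn promoter, at chr7:60004564-60005564, controls a gene for a splicing factor and the surrounding Prader-Willi domain. It had 0.552% and 3.62% in the controls and 0.536% and 0.992% in netrin-1, with control 2 above the other libraries. The island in the body of Grb10, an adaptor that restrains growth, had 0.771% and 2.76% in the controls and 1.44% and 2.57% in netrin-1. The Peg13 island inside Trappc9 had 1.19% and 1.49% in the controls and 0.725% and 2.19% in netrin-1. The groups overlapped at all 3 features.

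The islands of Nap1l5, Nnat, Inpp5f (intragenic) and Impact, the Zrsr1 promoter and the 2 islands of Gnas in the region of Nespas and the extra-large Gnas transcript completed the set. Among the 15 features other than Mest and Peg3, the greatest level in any library was 5.22%, at Nnat in control 2. Each of these 15 had at least 134 calls and at least 17 covered positions in every library.

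**Figure D1:**
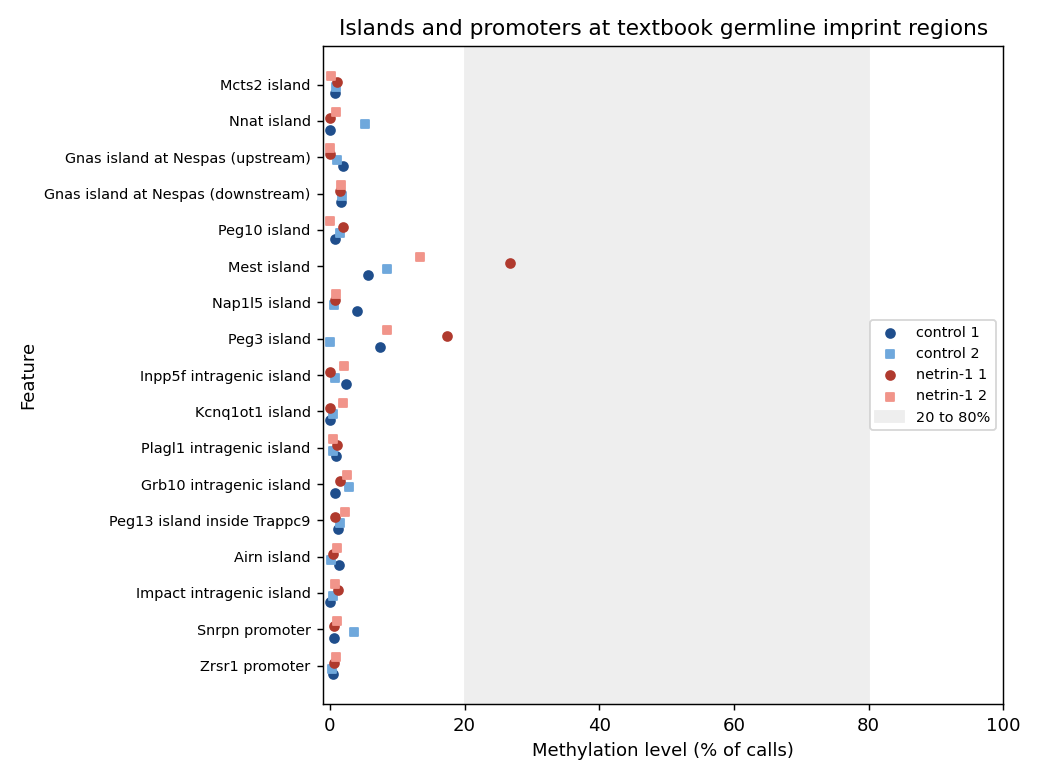
Methylation level, as a percent of calls, at 15 islands and 2 promoters of germline imprint regions (rows), with 1 point per library. The grey band marks 20 to 80%; in 15 of 17 rows all points lie at or below 5.22%, and only the Mest island has a point inside the band.

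Mest and Peg3 were the exceptions, and both were thinly covered. Mest encodes a hydrolase-fold protein expressed from the paternal copy. Its island had 5.67% of 141 calls and 8.51% of 47 calls in the controls, and 26.7% of 15 calls and 13.3% of 30 calls in netrin-1. Both netrin-1 libraries lay above both controls, but the exact (Clopper-Pearson) 95% interval of netrin-1 replicate 1 ran from 7.79% to 55.1% and reached into that of control 2, from 2.37% to 20.4%. Scaled coverage of this island in netrin-1 was 0.193 of that in the controls, and its part in the difference was not tested. The Peg3 island, at the promoter of a zinc finger gene, had 7.41% and 0% in the controls and 17.4% and 8.45% in netrin-1, from 36 to 71 calls. Its groups did not overlap either, although the intervals of control 1 (2.06% to 17.9%) and netrin-1 replicate 2 (3.16% to 17.5%) did. Neither island held enough calls for the test across the table. Intervals cover counting error only, since PCR copies of a molecule are not independent.

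Most other islands of imprinted genes were low too. Of 47 islands listed under the names, 43 had calls and 40 had at least 10 calls in every library. 35 of these 40 had a mean level below 5%, a share of 87.5% against 92.1% of 14358 islands in the table. The median level was 1.51% against 1.04%. No island of an imprinted gene had a mean level of 20 to 80%, and the highest mean was the 13.5% of Mest. An intragenic island of Trappc9, at chr15:73058049-73058500, was well covered and stood at 16.3% and 9.09% in the controls and 19.6% and 8.71% in netrin-1, from 310 to 594 calls (adjusted p = 0.822). A short intragenic island of Dlk1 had 12.5% and 12.1% in the controls and 13.04% and 10% in netrin-1, from 30 to 116 calls. The groups overlapped at both islands. In the same libraries 317 of 14358 islands (2.21%) did lie at 20 to 80%. Those islands, 0 of them listed under one of the 43 names, averaged 36.2% ± 1.42 in the controls and 33.1% ± 1.85 in netrin-1 (SD, n = 2), and 248 of them were intragenic. A further 5 islands that overlap imprinted genes but are listed under other names (Gm11608, Gm28048 for 2 islands, Gm20721 and Igf2os) had mean levels of 0.768% to 1.27%.

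Regions with paternal methylation gave partial coverage only. The promoter of H19, a noncoding RNA expressed from the maternal copy, lies next to the region that controls H19 and Igf2. It had 2.12% and 1.13% in the controls and 4.69% and 3.89% in netrin-1, so both netrin-1 libraries were above both controls. The Meg3 promoter, of another maternally expressed noncoding RNA, had 2.26% and 1.48% in the controls and 2.99% and 1.11% in netrin-1. The Rasgrf1 island, at the promoter of a guanine nucleotide exchange factor, had 1.95% and 2.69% in the controls and 1.73% and 0.880% in netrin-1 (adjusted p = 0.377). The intergenic island listed under Meg3, at chr12:109528253-109528472 in the Dlk1 to Meg3 interval, had no calls in any library. One of its shores had 40% and 20% in the controls and 20% in netrin-1 replicate 2, each of 10 calls, and no calls in netrin-1 replicate 1. The other shore had no methylated call in any library, from 5 to 20 calls. The distal regions upstream of H19 and Rasgrf1 were not analysed here. Ndn, a gene of the Prader-Willi domain, had no methylated call in 238 control and 234 netrin-1 calls, which allows a share of up to 1.26% and 1.28%.

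Methylation was present around the unmethylated islands. Shores, the 2000 bp next to an island, averaged 10.9% ± 0.0951 in the controls over 54 shores of imprinted genes, and shelves, the next 2000 bp, averaged 24.3% ± 0.837 over 33. Bodies averaged 20.6% ± 0.0496 over 36 genes, and islands 2.70% ± 0.776 (SD, n = 2 libraries throughout). The control means over all features of these classes were 11.5% for shores, 28.1% for shelves, 28.9% for bodies and 2.61% for islands. Windows of 100 kb that hold the start of an imprinted gene averaged 35.8% ± 1.46 over 31 windows, against 38.6% over all windows. The rise from island to shelf was thus present at imprinted genes in every library, with body levels below the average of all genes.

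**Figure D2:**
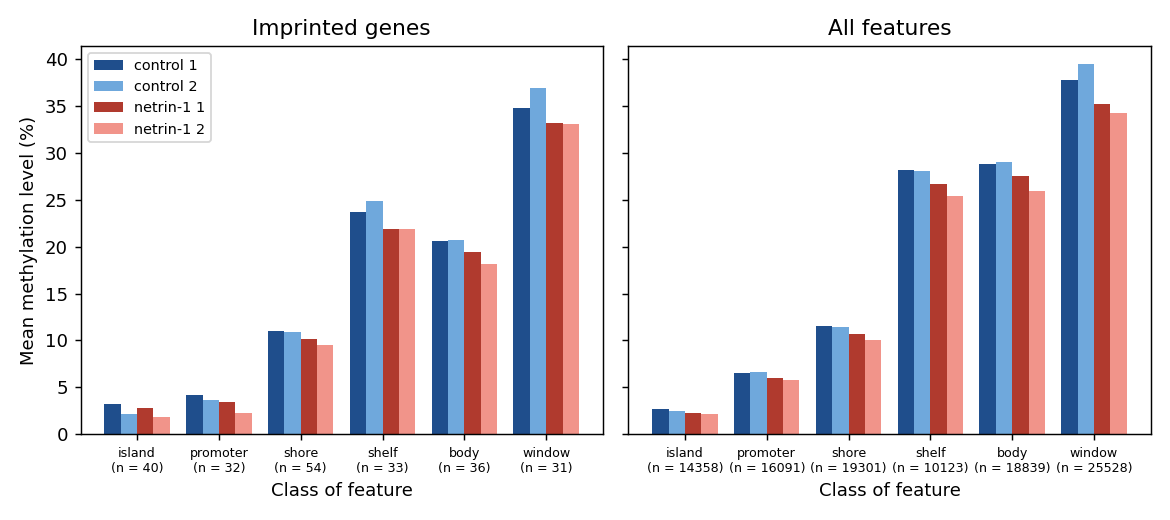
Mean methylation level (%) of 6 classes of feature in each of the 4 libraries (bars), for imprinted genes and for all features with at least 10 calls in every library. In both panels islands are lowest and windows highest, and in shores, shelves, promoters, bodies and windows of imprinted genes both netrin-1 bars lie below both control bars.

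Levels in netrin-1 were slightly lower in most classes, at imprinted genes as over the table. The mean over imprinted shores was 9.86% ± 0.447 in netrin-1 against 10.9% in the controls. Shelves averaged 21.9% ± 0.0158 against 24.3%, bodies 18.8% ± 0.943 against 20.6%, and promoters 2.88% ± 0.843 against 3.92% ± 0.431. In these 4 classes both netrin-1 libraries lay below both controls, whereas the island means, 2.70% and 2.31% ± 0.681, overlapped. Over all features, shores averaged 10.3% in netrin-1, shelves 26.0%, bodies 26.8%, promoters 5.91% against 6.59% and islands 2.26%, lower than the controls in each class. Less the difference over all features of the class, imprinted shelves and promoters were lower (-0.384 and -0.361 percentage points), islands hardly so (-0.0457), and the direction flipped in shores (0.0547) and bodies (0.285).

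The count of features whose groups did not overlap is read against the table. Among the 40 islands of imprinted genes 10 were lower in both netrin-1 libraries than in both controls (25% against 20.1% of all islands) and 5 were higher (12.5% against 13.7%). Shores gave 18 of 54 lower (33.3% against 23.9%) and 7 higher (12.96% against 9.96%). Shelves gave 13 of 33 lower (39.4% against 28.0%) and 2 higher (6.06% against 10.1%). Among promoters 7 of 32 were lower (21.9% against 21.0%) and 5 higher (15.6% against 13.2%). Bodies gave 16 of 36 lower (44.4% against 33.7%) and 2 higher (5.56% against 7.59%), and windows 10 of 31 lower (32.3% against 47.1%). The lower share for promoters lay near that of the table, those for islands, shores, shelves and bodies above it, and that for windows below it. The higher shares of shelves and bodies lay below the table. Gnas alone supplied 14 of the lower islands, shores and shelves, 4 of them islands. Without Gnas the lower share of islands fell below that of the table and that of shores lay near it. Only the share of shelves stayed above the table, so the excess for islands and shores is that of 1 locus. Flanks of neighbouring islands overlap, and the 195 features with at least 10 calls in every library held 182 distinct sets of calls.

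No feature of an imprinted gene passed the test of netrin-1 against control. The test was a quasi-binomial logistic model on methylated and unmethylated calls, with dispersions moderated across the table by limma and Benjamini-Hochberg adjustment over the table. Of 235 features in the CpG island table, 29 held enough information and 0 were called at an adjusted p under 0.05, where 0.186% of all 11815 tested were called. Of 82 features in the gene table, 30 were tested and 0 called, where 0.00581% of 17209 were called. At an unadjusted p under 0.05 there were 7 of 29 (24.1% against 12.1% of the table) and 5 of 30 (16.7% against 12.8%). All 12 of these were lower in netrin-1, and 7 of the 12 belonged to Gnas or Nespas. Of the 59 tested features, 22 and 24 in the 2 tables were lower in netrin-1, and 16 and 18 were lower with the libraries centred on the table. With limma, on percentage points or on the logit of the level, 0 of these features were called. Over all tested features limma called 0 in both tables on percentage points, and 2 and 0 on the logit. Those counts of 0 therefore say little about imprinted genes. Of the features with at least 10 calls in every library, 35 of the 40 islands and all 32 promoters held too little information to be tested, through a level near 0, few calls or both. In simulated data the spread between libraries was assumed, and all features met the information minimum. The test recovered 98 of 200 island-table features changed to an odds ratio of 0.25, with 8 false calls, and 0 of 200 changed to 0.5. At that spread a change of the smaller size would not be seen, and the simulation does not cover features with too little information.

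Features of the Gnas locus leaned to lower levels in netrin-1, although none was called. Gnas encodes the stimulatory G protein alpha subunit, with alternative promoters of opposite imprinting, and Nespas is the antisense noncoding RNA of the locus. Of 22 features of Gnas and Nespas with at least 10 calls in every library, 21 were lower in netrin-1, 17 had both netrin-1 libraries below both controls and 0 had both above. Over all features of the tables the share with both below was 20.1% of islands, 23.9% of shores, 28.0% of shelves, 21.0% of promoters and 33.7% of bodies. The locus was singled out after its values had been seen. Many of these features overlap and share calls, so they are not independent. Of the 9 that were tested, 9 were lower as measured and 7 after the libraries were centred on the table. All were low, with a highest mean over the 4 libraries of 6.65%.

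The Gnas body, at chr2:174284820-174346744, had 5.87% and 6.11% in the controls and 4.02% and 3.76% in netrin-1. The means were 5.99% ± 0.169 and 3.89% ± 0.181 (SD, n = 2; adjusted p = 0.268). The Nespas body, which overlaps its first part, had 6.06% and 4.82% in the controls and 2.95% and 2.67% in netrin-1 (adjusted p = 0.289). In both bodies the groups lay well apart.

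The shore that starts at chr2:174285391, beside the first Gnas island, had 9.19% and 6.60% in the controls and 3.44% and 3.42% in netrin-1 (adjusted p = 0.222). The small island inside that shore, at chr2:174286012-174286221, had 10 methylated of 51 calls and 3 of 43 in the controls, and 0 of 17 and 0 of 144 in netrin-1. By contrast the large island of the Nespas region, at chr2:174298464-174300644, had 1.66% and 1.82% in the controls and 1.50% and 1.63% in netrin-1 (adjusted p = 0.959). The island at the listed Gnas start had 2.75% and 5.50% in the controls and 2.02% and 0.369% in netrin-1, and the island at chr2:174297263-174297532 had 1.95% and 1.02% against 0% and 0%. In 4 of the 5 Gnas islands both netrin-1 libraries lay below both controls.

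**Figure D3:**
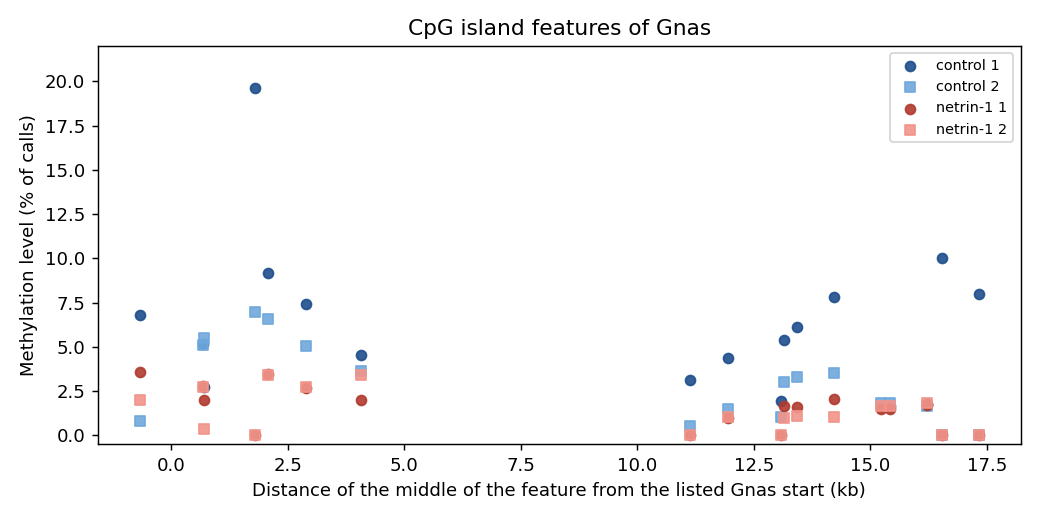
Methylation level, as a percent of calls, of the 18 CpG island features of Gnas with at least 10 calls in every library, against the distance in kb of the middle of each feature from the listed Gnas start, with 1 point per library. In 14 of the 18 both netrin-1 points lie below both control points, where 20.1% of all islands, 23.9% of shores and 28.0% of shelves do so; neighbouring features overlap.

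Apart from Gnas and the Mest and Peg3 islands, single flanks and bodies also differed between the groups by several percentage points or more. None of those that were tested passed, and several held too little information to be tested. The upstream shelf of Nnat, a gene for a neuronal membrane proteolipid, had 57.9% and 46.1% in the controls and 21.8% and 27.9% in netrin-1. The difference was -27.2 percentage points, with an unadjusted p of 0.00188 and an adjusted p of 0.121 in the quasi-binomial test. The groups were far apart at this shelf, while the shore between it and the Nnat island had 40.6% and 16.9% in the controls and 32.5% and 34.1% in netrin-1 and overlapped (adjusted p = 0.944).

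An intergenic shore assigned to Cdkn1c, a growth-restraining inhibitor of cyclin-dependent kinases, had 39.6% and 22.1% in the controls and 11.8% and 11.4% in netrin-1, from 96 to 154 calls, too few to be tested. Phlda2 restrains growth of the placenta. Its shore had 11.2% and 12.7% in the controls and 2.24% and 5.26% in netrin-1. An intergenic shore assigned to Dlk1, a Notch-family ligand, had 28.6% and 33.3% in the controls and 24.4% and 20.5% in netrin-1, from as few as 14 calls. In all 3 shores the netrin-1 libraries were the lower pair, and none of the 3 was tested.

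A shelf of Trappc9, a subunit of a vesicle tethering complex, had 26.7% and 43.4% in the controls and 21.1% and 26.1% in netrin-1. This shelf held too little information to be tested. Trappc9 and Slc38a4 lie on chromosome 15, where scaled coverage in netrin-1 was 0.708 of that in the controls, against 0.989 to 1.05 on the other chromosomes with imprinted genes. The part of that coverage in the Trappc9 values was not tested. Another shore of Trappc9 was higher in netrin-1, with 20.3% and 19.9% in the controls and 23.6% and 22.7% in netrin-1 (adjusted p = 0.884).

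Higher levels in netrin-1 were also found at flanks of 3 other genes, without a test. A shore of Inpp5f, an inositol phosphatase gene, had 23.7% and 26.4% in the controls and 31.0% and 31.3% in netrin-1. A shore of Ascl2, a transcription factor of the trophoblast, had 40.5% and 30.6% in the controls and 43.4% and 42.7% in netrin-1. One of its shelves went the other way, with 43.2% and 44.4% against 28.6% and 41.2%. In 2 shelves of H13, a signal peptide peptidase gene, netrin-1 levels lay above the controls, in the first with 8.33% and 6.25% against 20% and 10.8%.

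Promoters of imprinted genes were low with few exceptions. 28 of 32 with enough calls had a mean level below 5%. The listed promoter of Plagl1, which lies upstream of the imprinted island, had 14.3% and 10.5% in the controls and 3.76% and 5.62% in netrin-1. That of Grb10 had 11.3% and 13.7% in the controls and 4.57% and 7.63% in netrin-1. The promoter of Igf2r, the receptor that clears the growth factor IGF2, had 4.60% and 2.41% in the controls and 0.0934% and 0.964% in netrin-1. These 3 promoters had both netrin-1 libraries below both controls. The promoters of Peg3 and H13 were higher in netrin-1, with 3.70% and 0% against 14.0% and 3.73% at Peg3, and 0% and 1.13% against 5.88% and 1.53% at H13, where the lowest library had 34 calls.

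Slc22a18, a transporter gene of the Kcnq1ot1 domain, had the single promoter at 20 to 80%. Its levels were 56.2% and 45.0% in the controls and 53.3% and 30% in netrin-1, from 16 to 50 calls, and the groups overlapped. Its RefSeq window, printed above, holds 2 CpG, where the windows at the low features of Mcts2, Plagl1 and Snrpn hold 25, 26 and 7.

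Bodies of imprinted genes spanned a range from 0.9501% to 63.0% in mean level. 16 of 36 bodies lay at 0 to 10%, 5 at 10 to 20%, 3 at 20 to 30%, 5 at 30 to 40%, 6 at 40 to 50% and 1, Usp29, above that. Zim1, a zinc finger gene next to Peg3, had 37.4% and 42.1% in the controls and 32.0% and 27.3% in netrin-1, a difference of -10.1 percentage points (adjusted p = 0.230 in the quasi-binomial test). The body of Zdbf2, a paternally expressed gene that affects growth, had 18.1% and 17.1% in the controls and 11.8% and 7.63% in netrin-1, a difference of -7.90 percentage points (adjusted p = 0.294). The body of Sgce, the epsilon sarcoglycan gene, had 45.9% and 44.7% in the controls and 42.4% and 32.8% in netrin-1 (adjusted p = 0.435). In all 3 bodies both netrin-1 libraries lay below both controls.

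The H19 body had 36.8% and 29.6% in the controls and 26.8% and 28.2% in netrin-1 (adjusted p = 0.569), and its promoter, above, was near 0 in the same libraries. The Meg3 body had 40.7% and 34.1% in the controls and 35.1% and 26.3% in netrin-1, with overlapping groups (adjusted p = 0.427). Only Kcnq1ot1 and Nnat had bodies with both netrin-1 libraries above both controls. At Kcnq1ot1 these were 22.4% and 21.1% against 25.2% and 23.6% (adjusted p = 0.767). At the opposite end of the range, the body of Usp29, a ubiquitin protease gene of the Peg3 domain, had 53.4% and 65.4% in the controls and 61.4% and 72.0% in netrin-1 and overlapped.

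**Figure D4:**
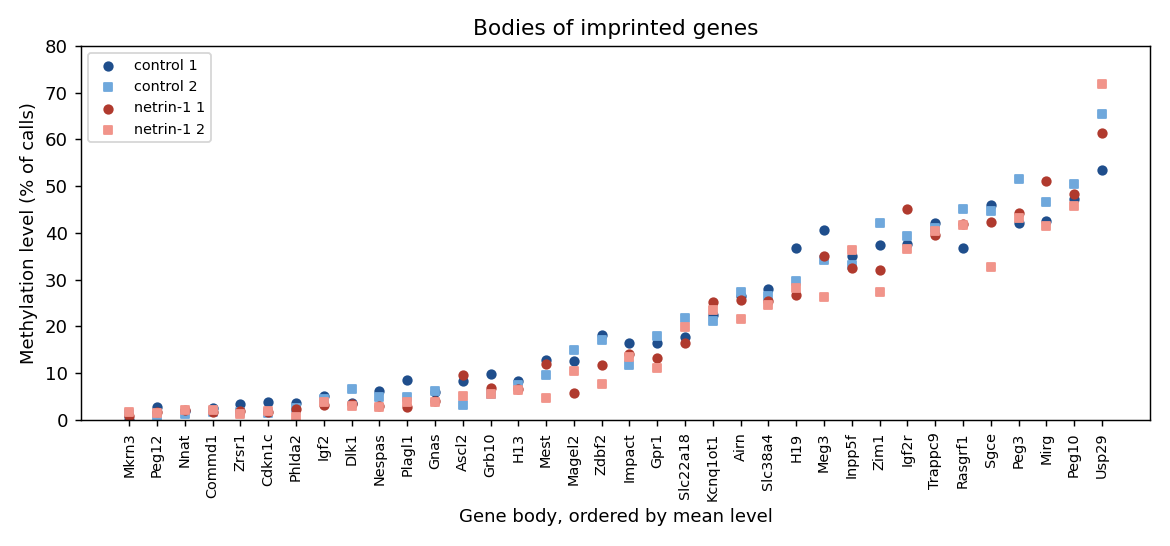
Methylation level, as a percent of calls, of the 36 bodies of imprinted genes with at least 10 calls in every library, ordered by mean level, with 1 point per library. 16 bodies lie at 0 to 10%; Zim1, Zdbf2 and Sgce have both netrin-1 points below both control points.

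**Figure D5:**
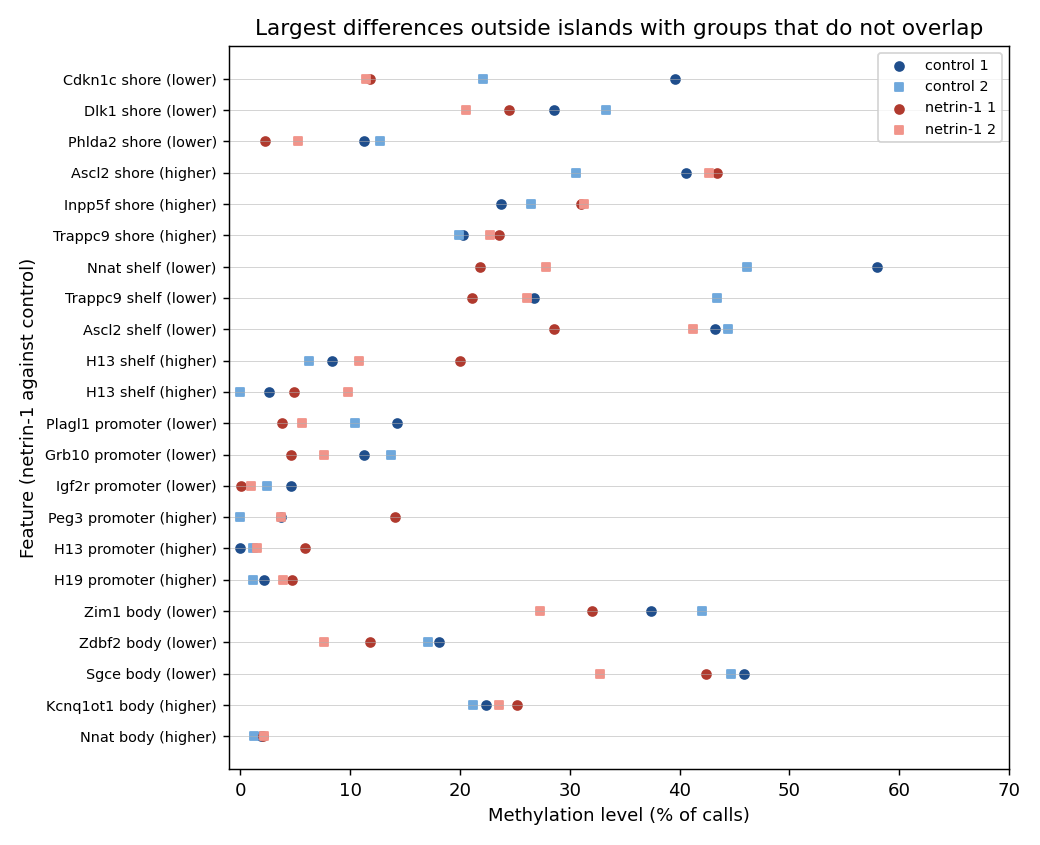
Methylation level, as a percent of calls, in each library at the imprinted shores, shelves, promoters and bodies with the greatest differences among those whose groups do not overlap, up to 3 per class and direction. The widest gap is at the Nnat shelf, from 21.8% to 57.9%.

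A list of 17 genes for imprint protection and methylation machinery had 12 promoters with enough calls, of which 6 were lower and 6 higher in netrin-1. Over all promoters 56.5% were lower. 2 of the 12 held enough information for the test and 0 of these were called in either direction, as were 0 of all 2068 tested promoters. The median difference of the 12 was 0.148 percentage points, beside -0.137 over all promoters. Dppa3 protects the maternal genome from demethylation in the zygote. Its promoter had 25.5% and 30.1% in the controls and 22.9% and 17.5% in netrin-1 (adjusted p = 0.447). The promoter of Zfp445, a zinc finger protein that also protects imprints, had 45.8% and 66.2% in the controls and 63.4% and 57.3% in netrin-1. The promoter of Zfp57 had no calls, and its island stood at 0.792% or below in every library.

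In a second list of 32 imprinted genes outside the 43, 24 promoters had enough calls, 17 of them lower and 7 higher in netrin-1. Over all promoters 56.5% were lower. 5 of the 24 could be tested and 0 of these were called, as were 0 of all 2068 tested promoters. The median difference was -0.598 percentage points, beside -0.137 over all promoters. The promoter of Calcr, the calcitonin receptor gene of the Peg10 domain, had 10.6% and 10.4% in the controls and 4.46% and 4.25% in netrin-1 (adjusted p = 0.331). Of the 21 islands of these genes with enough calls, 0 had a mean level of 20 to 80%, where 2.21% of all 14358 islands did. The highest mean among the 21 was 13.1%. Islands near 0 were found in this list as over the table, where 92.1% of islands had a mean level below 5%.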

How the data were processed

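RRBS was done on 4 libraries, 2 control and 2 netrin-1, grouped and numbered by their titles. Per the file headers, the authors deposited for each feature and library the covered positions, the count of total calls, the count of methylated calls and the level as a fraction. Methylated divided by total calls gave the authors' fraction to within 5.55e-16, and levels are printed as percent. The submitters' processing notes name mm10, GRCm38 and FastQC. Not given in the sources used here were the aligner, the methylation caller, the handling of duplicates and the bisulfite conversion. Re-sorted copies of the 3 tables were left out.

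Features needed at least 10 calls in every library. The test was a quasi-binomial logistic model (R 4.3.3, limma 3.58.1 for moderated dispersions), fitted over each whole table with all 4 libraries and no covariate, for features with total calls × level × (1 − level) of at least 25 per library on average. An earlier analysis of these data chose that minimum on simulated data. The script was tested on simulated calls. With 2 libraries against 2, an exact two-sided permutation test cannot go below p = 0.333 for a single value, so class means were described without a p. Scaled coverage is the ratio of netrin-1 to control calls after division by library totals. Promoters reach 500 bp to either side of the listed start. Sequences are RefSeq's (GRCm38.p6).

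The genes and lists were chosen with earlier results of these data known. Features named with values are those at germline regions and, in each class, up to 3 in each direction with the greatest difference among those whose groups do not overlap; Gnas, Nespas, Slc22a18, Usp29 and a few comparison genes were added after their values were seen. Alternatives covered the information minimum, the dispersion model, limma on percentage points or M values, the call minimum, centring, weighting and leaving out each library.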

Additional observations from a re-analysis of the deposited data

How the results depend on the processing

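The count of called features of imprinted genes stayed at 0 in both tables under most alternatives. With unmoderated dispersion and with limma on percentage points, 0 features were called over either whole table, so the 0 there says little about imprinted genes. With no information minimum, 1 feature of the CpG island table was called, the Nnat shelf (adjusted p = 0.0406), while the count over that table moved from 22 to 412 and over the gene table from 1 to 75. Leaving out 1 library gave 0 in the CpG island table and 0 to 1 in the gene table, where Zim1 was called without netrin-1 replicate 1 (adjusted p = 0.0489). The counts over all features then ranged from 22 to 67 and from 18 to 444. Of 77 pairs of a tested named feature and an alternative, 2 passed the threshold, these same features. The direction changed in 0 pairs, which says little about stability. These features were chosen for groups that do not overlap, so only centring could have reversed a difference.

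The netrin-1 minus control difference of the promoter mean, -1.04 percentage points, became -0.307 with library medians in place of means. It became -0.361 with libraries centred on the table, and ranged from -1.63 to -0.442 without 1 library. The difference of the body mean, -1.85, became -3.91 weighted by calls and -4.59 with library medians in place of means. It ranged from -2.51 to -1.18 without 1 library and reversed to 0.285 with libraries centred. The call-weighted value also moves with the share of calls that each body gave in each library. The Trappc9 body, with the most calls, had a mean level of 40.8% and a difference of -1.67 percentage points. Its scaled coverage in netrin-1 was 0.696 of that in the controls, and its part in the weighted value was not tested. Of the 30 tested bodies, 24 were lower in netrin-1 as measured and 18 with libraries centred. The median of their differences was -1.92 as measured and -0.432 with libraries centred. The number of islands at an intermediate level was 0 at 20 to 80% and at 30 to 70%, and as there were none, their mean level could not be recomputed.

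With the replicate number as a block, 0 features of imprinted genes were called in either table, and the counts over all features were 14 and 299. Deviations of same-numbered libraries correlated at -0.000352 and 0.0317 in the 2 tables. Such values cannot tell whether same-numbered libraries share a culture or a preparation, and the labels give only the number. Depth limits the Mest, Peg3, Dlk1 and small Gnas islands, with 15 to 36 calls in their thinnest library, and single flanks with fewer still.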
